A study of Mus musculus with 39 samples.

Results

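The acute-phase proteins described here were 8 genes, chosen by name: Saa1, Saa2, Saa3, Lcn2, Hp, Orm1, Orm2 and Serpina3n. They were read by 9 probes, 2 of them for Saa1, among 29411 gene names on the array, and all 8 were well above background on at least 36 of 39 arrays except Saa2, on 32. The tissue was subcutaneous adipose of C57BL/6J mice that were weaned at 3 to 4 weeks of age and divided over 5 diets. LFC was the low-fat control diet (10 arrays), HFC the high-fat, high-sucrose diet (11 arrays), and HF5, HF20 and HF75 were the high-fat diet with 5, 20 or 75 µg of KAL-1, an ethno-botanical formulation (6 arrays each). The KAL-1 diets had 1 array each for Week 3, 6, 9, 12, 15 and 18. LFC and HFC had these as well as Week 0 and Day 6, Day 10 and Day 14, and HFC alone had Day 1. The study's methods count weeks from Day 14, so that Day 14 and Week 0 are the same time sampled again. LFC and HFC therefore had 2 arrays each at that time, kept apart here under their labels, and no other diet and time had a second array. Whether an array held 1 mouse or a pool is not given in the labels. So the p-values of the diet comparisons below measure the spread between arrays of different time points. The tests of time itself had no time block, so there arrays of the same time point also counted as separate.

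Acute-phase proteins are secreted in large amounts when tissue is injured or infected, chiefly by the liver, and adipose tissue transcribes several of them. Their genes are switched on by the cytokines Il6, Il1b and Tnf through the transcription factors Stat3, NF-kB and C/EBP. Saa1 and Saa2 encode the serum amyloid A proteins of plasma high-density lipoprotein, and Saa3 encodes the form known from adipose tissue and macrophages. Lcn2 binds bacterial siderophores, Hp (haptoglobin) binds free hemoglobin, Orm1 and Orm2 are lipid-carrying plasma glycoproteins, and Serpina3n inhibits serine proteases.

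The level of a transcript was the log2 signal of its probe minus the log2 of the 75th percentile of its array, so that 0 is the level of the 75th percentile spot. Levels of different probes cannot be set against each other. The 75th percentile signal lay between 108 and 1285 over the arrays, and between 49.3% and 87.8% of spots were well above background. All 8 adipocyte markers were above background on every array, with a mean level of 0.73 to 5.42, while the skeletal muscle marker mean ran from -3.76 to 7.60 and the lymphocyte mean from -5.14 to 2.02. The array with the most spots above background, HF20 Week 15, also had 4936 spots marked as outliers by the scanner software against a median of 42. The HF5 and HF20 arrays of Week 12 matched each other's column in the table of ratios deposited with them (r = 1.00 over 40628 probes, against 0.66 with their own), so their labels may be crossed.

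The probes of the serum amyloid A genes are shown because the results on Saa1 turn on which of its probes is read. Each is 60 bases long. Saa1 and Saa2 are near-identical genes, as are Orm1 and Orm2, so the signal of one may hold RNA of the other and their separate levels are uncertain.
Saa1, first probe, above background on 39 arrays: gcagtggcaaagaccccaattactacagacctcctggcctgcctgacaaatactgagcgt
Saa1, second probe, above background on 23 arrays: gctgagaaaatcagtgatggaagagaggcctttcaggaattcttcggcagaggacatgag
Saa2, above background on 32 arrays: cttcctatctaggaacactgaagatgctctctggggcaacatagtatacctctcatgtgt
Saa3, above background on 38 arrays: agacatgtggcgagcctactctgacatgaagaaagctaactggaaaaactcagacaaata
The accession carried by each of the 8 members' probes led to the same symbol in RefSeq.

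The 250 bases before the start of Saa1, Saa2 and Saa3 (RefSeq, GRCm38.p6) are shown because these genes lie together on chromosome 7 and were high together on some arrays and apart on others. Capitals mark matches, on either strand, to the C/EBP letters TTNNGNAA or the NF-kB letters GGGNNNNNCC. None of these stretches held the STAT letters TTCNNNGAA.
Saa1 (chr7:46742981-46743230, minus strand): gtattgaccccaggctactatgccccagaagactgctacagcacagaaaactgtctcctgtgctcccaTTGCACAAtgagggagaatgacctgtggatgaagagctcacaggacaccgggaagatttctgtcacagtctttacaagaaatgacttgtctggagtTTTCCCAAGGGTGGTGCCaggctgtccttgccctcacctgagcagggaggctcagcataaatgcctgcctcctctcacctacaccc
Saa2 (chr7:46751583-46751832, plus strand): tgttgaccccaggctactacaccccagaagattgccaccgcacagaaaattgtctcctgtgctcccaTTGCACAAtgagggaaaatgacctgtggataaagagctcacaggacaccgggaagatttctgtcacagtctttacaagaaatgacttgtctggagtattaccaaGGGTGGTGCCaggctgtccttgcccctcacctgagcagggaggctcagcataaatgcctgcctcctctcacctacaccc
Saa3 (chr7:46715677-46715926, minus strand): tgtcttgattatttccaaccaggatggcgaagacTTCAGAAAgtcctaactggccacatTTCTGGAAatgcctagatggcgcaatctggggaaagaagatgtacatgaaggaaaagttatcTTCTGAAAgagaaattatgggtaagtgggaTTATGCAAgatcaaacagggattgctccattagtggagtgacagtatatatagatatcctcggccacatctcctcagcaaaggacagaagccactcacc
Saa1 and Saa2 shared 238 of 249 aligned bases (95.6%). The C/EBP letters were found in 2 places before Saa1, 1 before Saa2 and 4 before Saa3, and the NF-kB letters in 1 place before Saa1 and Saa2 and in none before Saa3. Of the 6 members with an entry, which leaves out Hp and Orm1, 6 held the C/EBP letters and 4 the NF-kB letters. Over all 32851 promoters of the same length the shares were 36.8% for the C/EBP letters, 45.8% for the NF-kB letters and 7.02% for the STAT letters.

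Saa1 and Saa2 stood highest on the array with the highest liver marker mean. On HFC Day 14, Saa2 was at 5.67, the first Saa1 probe at 5.68 and the second at 4.84, and Saa2 and the first Saa1 probe were saturated there. Albumin (Alb), the main secreted protein of the liver, was at 5.62 and saturated on the same array, and transthyretin (Ttr), another liver product, was at -0.71. Of 12 liver marker transcripts, 12 were well above background there and their mean level was 1.56. The next highest liver marker mean was on LFC Week 18, the array with the lowest 75th percentile signal. Saa2 was at 0.74 there, Alb at 0.86, Ttr at -4.39, not well above background, and the liver marker mean was -1.62, with 9 of 12 above background. On the other 37 arrays the liver marker mean ran from -6.45 to -3.42, with 3 to 10 of the 12 markers above background, and Saa2 from -6.31 to -1.74. Ttr ran from -9.00 to -2.59 on those 37 (median -7.45), and its highest level, on HF20 Week 15, was well above background, with 9 of the 12 markers so and Orm1 at 2.45, its highest level on the KAL-1 diets. The highest of those Saa2 values, -1.74 on HFC Day 10, came with Alb at 2.07, the highest of those Alb values, and 10 of the 12 markers above background. Alb was also higher than on LFC Week 18 on LFC Week 12 (1.67), LFC Day 6 (1.62) and HFC Week 3 (1.05). What part liver RNA had in these levels was not tested.

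**Figure D1:**
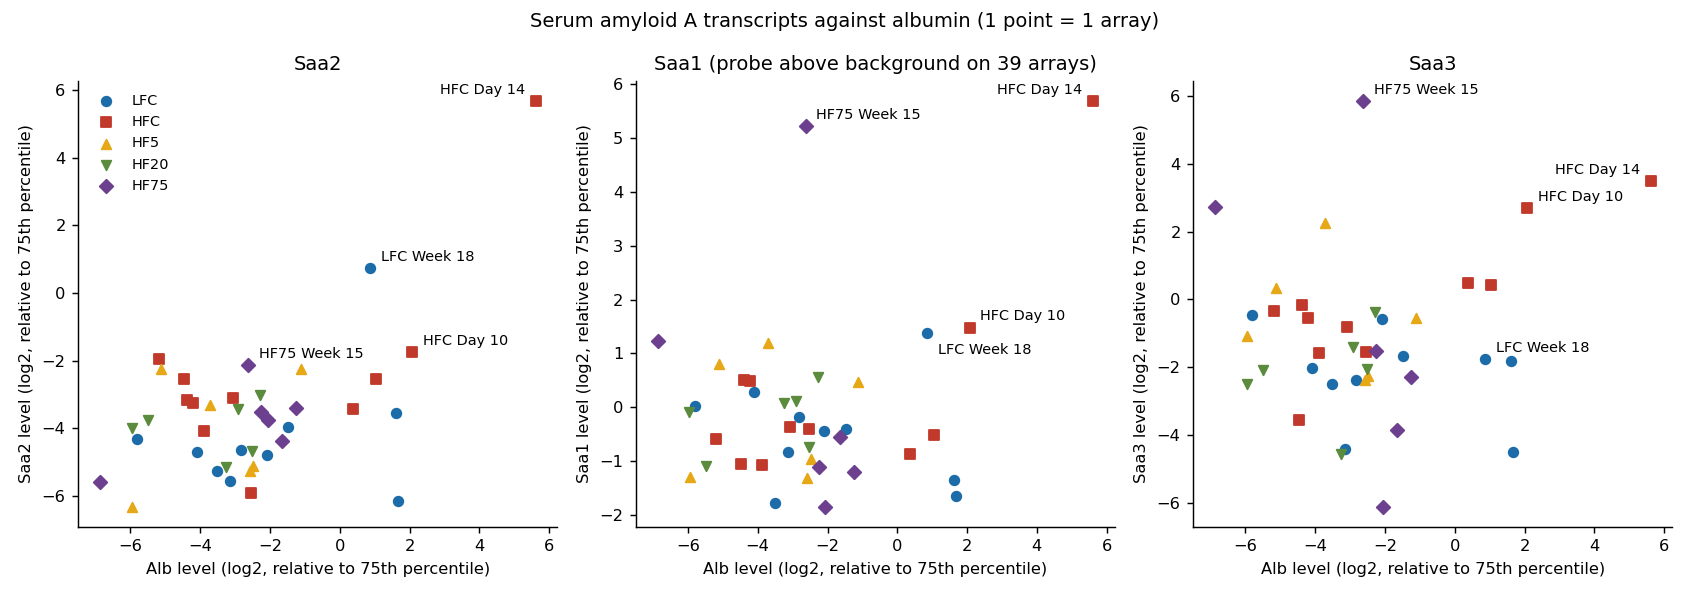
Levels of Saa2, Saa1 (first probe) and Saa3 on the y axes against the level of albumin on the x axis, all log2 relative to the 75th percentile of the array, with 1 point per array and the 5 diets in colour. HFC Day 14 stands at the upper right for Saa1 and Saa2, while HF75 Week 15 is high in Saa1 (5.22) and Saa3 (5.84) with albumin at -2.63.

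Saa3 was highest on another array. Its level was 5.84 on HF75 Week 15, where Alb was at -2.63, Ttr at -7.89 and the liver marker mean at -5.32, and its next highest level was 3.48 on HFC Day 14. On HF75 Week 15 the first Saa1 probe was at 5.22, against its own median of -0.43 over the arrays other than HFC Day 14 and LFC Week 18. The second was at -3.16, against its own median of -4.90, and Saa2 at -2.13, against -3.75. Lcn2 had its highest level of all arrays there too, at 1.35. Over the 39 arrays the first Saa1 probe followed Saa3 (Pearson r = 0.77) and the second followed Saa2 (r = 0.90). The probes of Saa1 correlated with each other at r = 0.75. Without HFC Day 14 and LFC Week 18 the first probe correlated with Saa3 at 0.79 and with Saa2 at 0.43, and the second probe with Saa2 at 0.74 and with Saa3 at 0.39. These coefficients describe 39 or 37 arrays that share diets, time points and scan days. Alb and Saa2 had r = 0.54 over 39 arrays and 0.16 without those arrays, and Alb and Saa3 had 0.12 and -0.05. With the liver marker mean, Saa2 had 0.80 and 0.33, and Saa3 0.26 and 0.05. With Ttr, Saa2 had 0.64 and 0.17, and Saa3 0.09 and -0.17.

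**Figure D2:**
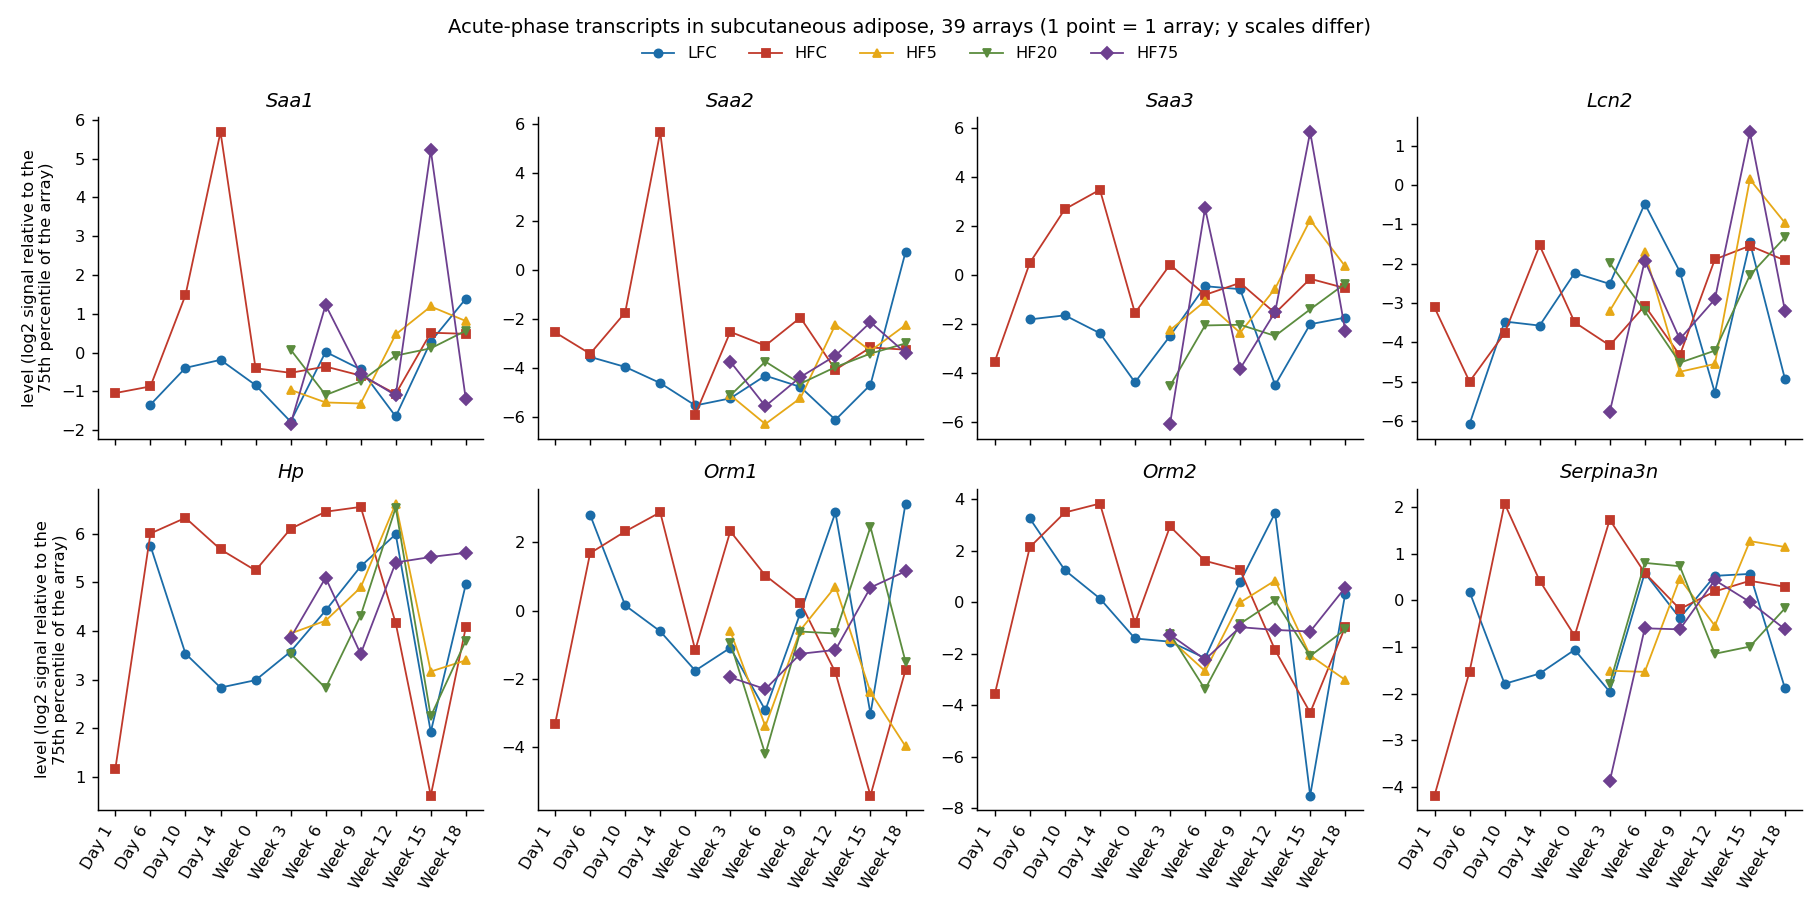
Level (y axis, log2 relative to the 75th percentile of the array) of the 8 transcripts at each time point (x axis), with 1 point per array and the diets in colour. Saa1 and Saa2 peak on HFC Day 14, Saa3 and Lcn2 on HF75 Week 15, and Hp has its lowest level, 0.62, on HFC Week 15.

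The members differed in how widely they ranged over the 39 arrays. Saa2 ran from -6.31 to 5.67 and Saa3 from -6.10 to 5.84, each a range of over 11.9 log2 units. Orm2 ran from -7.50 to 3.84 and Orm1 from -5.42 to 3.14. Hp ran from 0.62 to 6.62 and Serpina3n from -4.19 to 2.08. The lowest arrays of Saa2 (HF5 Week 6), Saa3 (HF75 Week 3), Orm2 (LFC Week 15) and Lcn2 (LFC Day 6, at -6.08) were not well above background, so their levels only say that the signal was low. Hp was saturated on 6 arrays, 4 of them HFC, so its upper levels are lower limits.

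The comparison of HFC with LFC asked whether the high-fat diet changed these transcripts, with 10 arrays per diet matched by time point. All 8 members had a positive difference, with a median of 1.00 on the log2 scale against -0.04 over all 19873 genes tested, and 45.3% of all genes were above 0. None of the 8 passed limma's test at an adjusted p under 0.05 (smallest 0.803), and neither did any other gene (0% called). Saa3 alone was under 0.05 before adjustment, where the share over all genes was 5.86%.

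The level of Saa3 was higher on HFC than on LFC at 9 of 10 time points. Its LFC levels lay between -4.50 and -0.46 (median -1.92), and its HFC levels at the same time points from -1.56 to 3.48, so the diets overlapped. The difference was 2.32 at Day 6, 4.34 at Day 10, 5.87 at Day 14 and 2.84 at Week 0. At Week 3 it was 2.92, at Week 6 -0.35, at Week 9 0.26, at Week 12 2.94, at Week 15 1.86 and at Week 18 1.20. The mean was 2.42 (SE 0.52, 95% interval 1.28 to 3.56), a 5.35-fold higher signal in HFC (limma p = 0.000588 before and 0.803 after adjustment over all genes). The 8 pairs scanned on the same day gave a mean of 2.37, with 7 of 8 above 0. Without HFC Day 14 and LFC Week 18 the difference was 2.14, and with Day 14 and Week 0 averaged within each diet it was 2.20. The macrophage marker mean had a median of 1.26 over the 11 HFC arrays (range -1.65 to 2.06) and 0.81 over the 10 LFC arrays (-0.11 to 1.45), and its part in the difference was not tested.

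The HFC level of Saa2 exceeded that of LFC at 8 of 10 time points, by 1.87 on average (SE 1.00, 95% interval -0.31 to 4.04, adjusted p = 0.803 by limma). The largest difference was at least 10.29 at Day 14, where the HFC spot was saturated, against -0.37 at Week 0, the same time in the study's count. The lowest was -4.00 at Week 18, and Day 14 and Week 18 were the time points of the arrays with the highest liver marker means. Without Day 14 the mean was 0.93, and with normexp background correction 0.81. It lay between 1.23 and 2.73 at Week 3, 6, 12 and 15. At Week 9 it was 2.84, where the LFC spot was not well above background, so that value is no measured size. The first Saa1 probe gave 0.93 (SE 0.54) and the second 1.68 (SE 0.96), with adjusted p = 0.803 and 0.847 by limma, the second in a fit of every probe. The first probe also had its largest difference at Day 14 (5.87, saturated in HFC, against 0.44 at Week 0), and its mean without Day 14 was 0.38. The second probe differed by 10.66 at Day 14, where the LFC spot was not well above background, and its mean without Day 14 was 0.68. Its LFC spot was also not well above background at Day 6, Week 3, Week 9 and Week 12, nor its HFC spot at Week 12. So neither mean of the second probe is a measured size.

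Hp showed a split in time. It was higher in HFC at each of the 7 time points from Day 6 to Week 9, by 0.25 to 2.84, and its difference was -1.83 at Week 12, -1.31 at Week 15 and -0.88 at Week 18. The HFC spot was saturated at Day 10, Day 14, Week 3 and Week 6 and the LFC spot at Week 12, so the differences at those time points are lower limits in size and the mean holds them as read. That mean was 0.99 (SE 0.51, limma adjusted p = 0.803), and 1.501 with array quality weights. The adipocyte marker mean differed in the same direction at every time point but Day 6. At Week 6 it was 5.12 in HFC and 2.80 in LFC, and at Week 12 it was 2.84 in HFC and 5.01 in LFC. In bulk tissue, fewer adipocytes and less of a transcript per adipocyte cannot be told apart. The part of adipocyte content in the Hp values was not tested.

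The remaining members spread widely over the time points, and of these Orm1 and Lcn2 had means near 0. Serpina3n had the higher level on HFC in 7 of 10 pairs, with 3.87 at Day 10, 3.69 at Week 3 and 0.00 at Week 6, and a mean of 1.00 (SE 0.52, 95% interval -0.13 to 2.14). Over the 8 pairs scanned on the same day its mean was 1.51, and with array quality weights 0.57. Orm2 had a mean of 1.07 (SE 0.85), 2.15 over the same 8 pairs, and 0.69 without Week 3 or 1.78 without Week 12. Orm1 had 0.08 (SE 0.91) and Lcn2 0.16 (SE 0.60), and their 95% intervals, -1.91 to 2.08 and -1.15 to 1.47, held changes of more than a doubling either way. The sign of Lcn2 turned under other processing, and that of Orm1 when single time points were left out. Adjusted p was 0.803 or higher for each of these by limma.

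**Figure D3:**
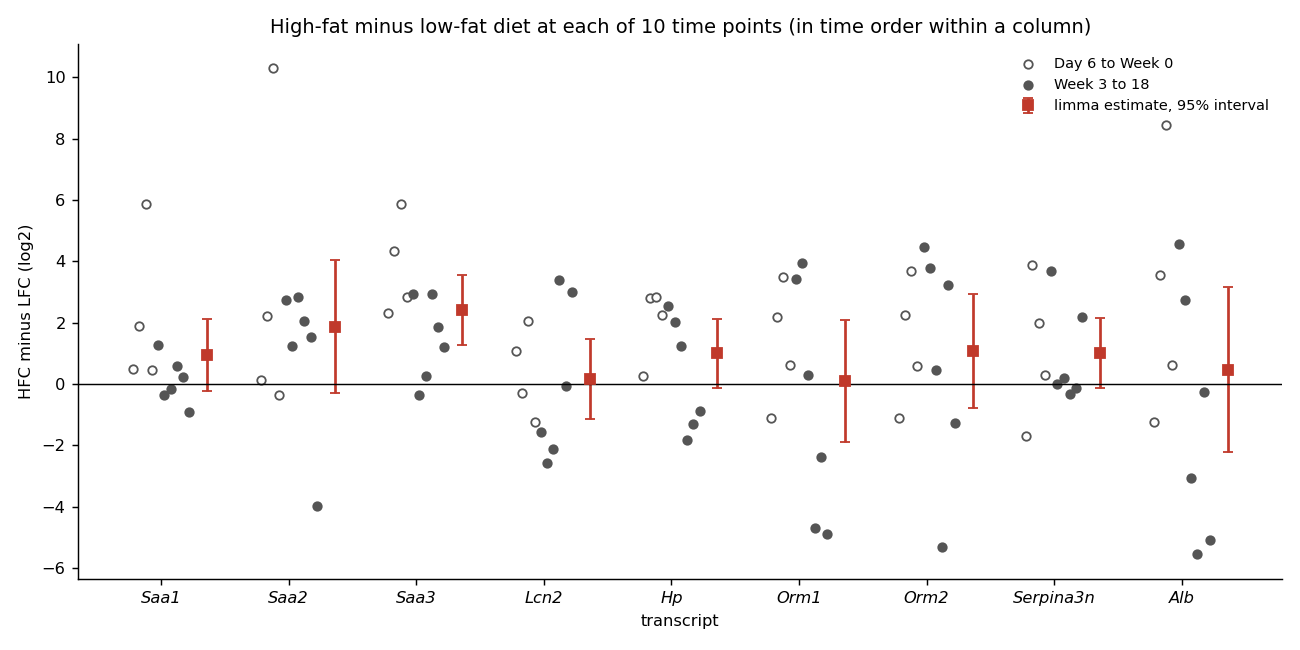
HFC minus LFC (y axis, log2) for the 8 transcripts and albumin (x axis), with 1 circle per time point in time order, open for Day 6 to Week 0 and filled for Week 3 to Week 18, and the limma estimate with its 95% interval as a red square. Saa3 is the transcript whose interval, 1.28 to 3.56, lies above 0, and albumin has the interval -2.22 to 3.15.

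Whether the diet difference itself changed between the early time points (Day 6 to Week 0) and the late ones (Week 3 to Week 18) was tested as an interaction. All 8 members had a smaller difference late than early, with a median of -1.87 against -0.01 over all genes. For Saa3 the change was -2.37 (SE 0.85, limma p = 0.0177 before adjustment and 1.00 after), and for the first Saa1 probe -2.06 (SE 0.97). The second Saa1 probe gave -3.37 (SE 1.78). The values of Saa3 and the first Saa1 probe rested in part on Day 14, since without it they were -1.69 and -0.82. Alb moved the same way, by -3.96 (SE 2.33). None of the 8 was called, nor any other gene (0%), and 1 of 8 was under 0.05 before adjustment, against 1.89% of all genes. In the 30 late arrays alone, HFC minus LFC was 1.47 for Saa3 (SE 1.13), 1.06 for Saa2 (SE 0.75) and 0.93 for Serpina3n (SE 0.62), and 0 of 8 members and 0% of 21087 genes were called. Before adjustment 0 of 8 were under 0.05, against 5.06% of all genes.

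Time itself was compared within LFC and HFC and, for all diets, as a change per week from Week 3 to Week 18. Arrays of the same time point counted as separate in these fits, so the p-values take no account of what such arrays share. Each scan day held arrays of a single time point, so time and scan day cannot be told apart. Late against early arrays of LFC and HFC gave 0 of 8 members called, where 44 of 19873 genes (0.221%) were, and 0 of 8 were under 0.05 before adjustment, against 13.3% of all genes. The widest value was -2.15 for Orm2 (SE 1.16, limma adjusted p = 0.429). Without Week 15, the time point of the LFC array at -7.50 and not well above background, it was -1.10. Per week, Saa2 gave 0.14 log2 units (SE 0.04, limma p = 0.00444 before adjustment, and 0.03 units with normexp background correction) and Saa1 0.12 (SE 0.04, p = 0.0135), and neither passed the adjusted test (0.173 and 0.228). Saa2 was not well above background on 7 of the 30 arrays, all of Week 3 to Week 9. The second Saa1 probe gave 0.14 per week (SE 0.04, with an adjusted p of 0.161 by limma), and 16 of the 30 arrays had its spot above background. Saa3 had 0.13 (SE 0.08) and Lcn2 0.09 (SE 0.06). Among all genes 20 of 21087 were called (0.0948%) and 15.5% were under 0.05 before adjustment, against 2 of 8 members. Without LFC Week 18, the array with the highest liver marker mean in this fit, the Saa2 value was 0.09 per week (limma adjusted p = 0.328). Weighting the arrays by quality gave 0.14, which passed the test (limma adjusted p = 0.0496) where 421 genes did in all, and leaving out Week 3 gave 0.19 (0.0476), where 2894 genes passed.

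**Figure D4:**
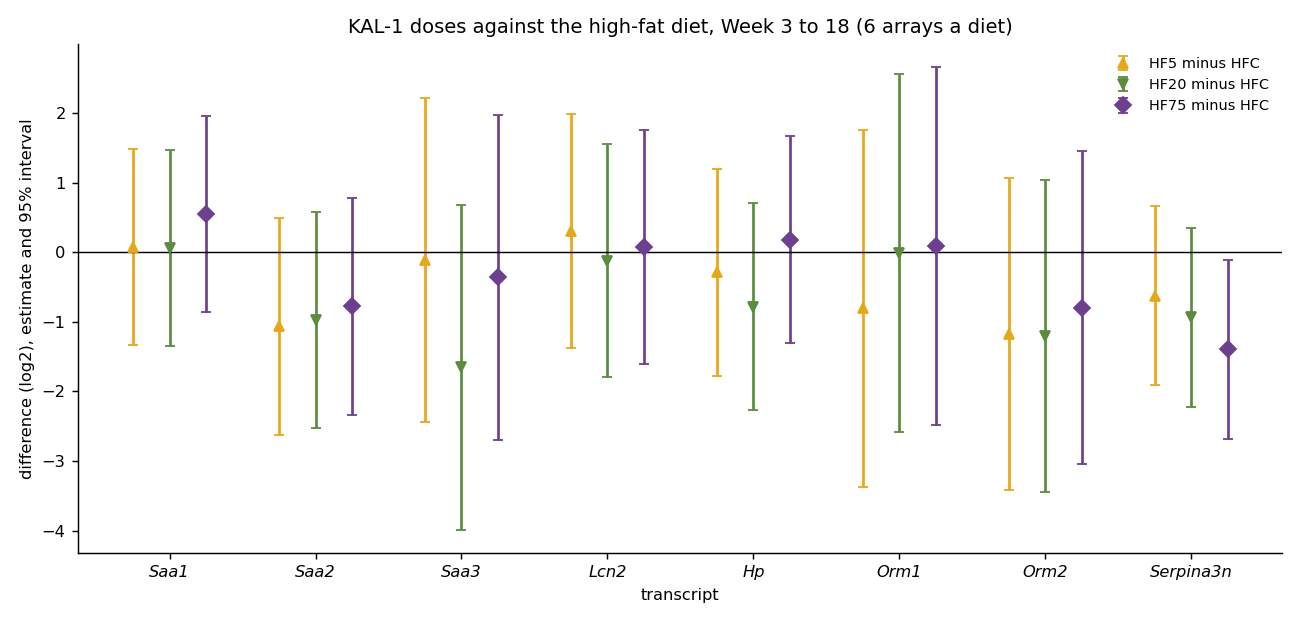
Difference from HFC (y axis, log2, limma estimate with 95% interval) of the 8 transcripts (x axis) on HF5, HF20 and HF75, from 6 arrays per diet at Week 3 to Week 18. The intervals reach across 0 except for Serpina3n on HF75, whose interval runs from -2.68 to -0.11.

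KAL-1 was given at 3 doses in the high-fat diet, and each was compared with HFC over the 6 late time points. The comparisons share the HFC arrays. No member was called at any dose, and neither was any other gene (0% of 21087), although normexp background correction gave 8113 genes, no member among them, on HF20. Before adjustment 0 of 8 members were under 0.05 on HF5 (1.36% of all genes), 0 of 8 on HF20 (4.27%) and 1 of 8 on HF75 (5.02%). On HF5 the 8 differences ran from -1.17 to 0.30, on HF20 from -1.65 to 0.06 and on HF75 from -1.39 to 0.55. Their medians were -0.45, -0.86 and -0.14, against 0.00, 0.05 and 0.00 over all genes. Saa3 had -0.11 on HF5, -1.65 on HF20 and -0.36 on HF75, each with an SE of 1.13. Single time points set these values. The HF75 differences of Saa3 ran from -6.52 at Week 3, where it was not well above background, to 6.00 at Week 15, and their mean was 0.87 without the first and -1.64 without the second. On HF20 the mean of Saa3 without Week 3 was -0.99, and on HF5 it was 0.40. The highest difference on HF75, 0.55, was that of the first Saa1 probe. It differed by 4.70 at Week 15 and had a mean of -0.28 without it. The second Saa1 probe, above background on 16 of the 30 late arrays, gave -0.29 on HF75 (SE 0.71) and differed by 1.74 at Week 15. On HF5 and HF20 the second probe gave -1.11 and 0.00, against 0.08 and 0.06 for the first. Leaving out each time point in turn, the mean changed its sign at least once for 3 of 8 members on HF5, 3 on HF20 and 5 on HF75. With all doses together, 6 of 8 members were below HFC, with a median of -0.50 against 0.02 over all genes, and 4 of 8 were below LFC, with a median of 0.04 against -0.02. None of these was called or under 0.05 before adjustment, where 4.51% of all genes were against HFC and 3.45% against LFC. The counts of members above HFC differed between time points, which was not tested. No share over all genes was taken at single time points, and the doses share the HFC array of each time point. On HF5, 1 of 8 members was above HFC at each of Week 3, 6 and 9, and 6, 7 and 5 of 8 were at Week 12, 15 and 18. On HF20 the counts were 2, 1 and 1, then 5, 3 and 5, and on HF75 0, 3 and 2, then 6, 7 and 3. The adipocyte marker mean of HFC changed sides against the KAL-1 arrays between Week 9 and Week 12. On HFC it was 5.10, 5.12 and 4.72 at Week 3, 6 and 9, above all KAL-1 arrays of those times (up to 2.59, 3.17 and 4.24). At Week 12 and 15 it was 2.84 and 0.73 on HFC, below the KAL-1 arrays (3.67 to 4.81 and 1.42 to 2.76). At Week 18 it was 3.02 on HFC, 2.06 on HF5, 3.26 on HF20 and 4.66 on HF75, which did not follow the counts. Its part in them was not tested.

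Serpina3n had the value nearest to a dose order. It was at -0.18 to 1.73 on HFC (median 0.36), -1.53 to 1.27 on HF5 (-0.04), -1.79 to 0.81 on HF20 (-0.58) and -3.88 to 0.44 on HF75 (-0.61) over the late time points, so the diets overlapped. The difference from HFC was -0.62 on HF5, -0.93 on HF20 and -1.39 on HF75, each with an SE of 0.62. HF75 was lower than HFC at 5 of 6 time points (limma p = 0.0347 before adjustment and 0.866 after, with 5.02% of all genes under 0.05 before it). The change per dose step was -0.45 (SE 0.20, limma adjusted p = 0.893), and it alone of the 8 was under 0.05 before adjustment, where 5.06% of all genes were. Without Week 3, the time point of the HF75 array at -3.88, the HF75 difference was -0.55 and the dose step -0.20, and with array quality weights they were -0.77 and -0.25. Serpina3n was not well above background on that array, so -3.88 only says that its signal was low. The array also had the lowest macrophage marker mean of all, -1.99, the highest skeletal muscle marker mean, 7.60, and the fewest spots above background, 49.3%. Their part in the difference was not tested.

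The levels of Saa3 on HF75 lay far apart. They were -6.10 at Week 3, 2.73 at Week 6, -3.84 at Week 9, -1.52 at Week 12, 5.84 at Week 15 and -2.29 at Week 18. The Week 3 array, with the muscle marker mean of 7.60, was not well above background for Saa3, Saa2, Lcn2 or Serpina3n. Lcn2 on HF75 ran from -5.78 at Week 3 to 1.35 at Week 15. The neutrophil marker mean on HF75 Week 15 was 0.80 and the mean of the inducing cytokines 1.17, both inside the range of the other arrays (up to 1.76 and 1.84).

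Coefficients of the members were taken with the adipocyte, macrophage, neutrophil, liver and inducing cytokine lists and with no other list. Among these lists Lcn2 had its highest coefficient with the inducing cytokines. On 6 arrays (LFC Day 6 and Week 12, HFC Day 1, Day 6 and Day 10, and HF75 Week 3) the mean level of Il1a, Il1b, Il6, Tnf, Lif and Osm was -5.19 or lower, against -1.97 or higher on the other 33. The same 6 arrays stood apart in other lists. Their mean of signal and transcription factors was 1.47 to 2.05, against 3.35 or higher on the rest, and 5 of them had skeletal muscle marker means of 3.51 to 7.60. The muscle means of the rest ran from -3.76 to 6.08 (HF5 Week 12) and overlapped with these. The part of these in the levels of Lcn2 was not tested. Lcn2 lay between -6.08 and -3.11 on those 6 (median -5.14) and between -4.93 and 1.35 on the other 33 (median -2.51), so the sets overlapped. On LFC Day 6 and HF75 Week 3 it was not well above background. Over those 33 arrays Lcn2 and the cytokine mean had r = 0.71, and Lcn2 and the neutrophil marker mean 0.45. On the same 6 arrays Orm2 had a median of 2.70, against -1.05 on the rest. Its low levels among the 6 were -3.56 on HFC Day 1 and -1.25 on HF75 Week 3, and those of Orm1 were -3.32 and -1.95 on the same arrays.

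Among the same lists Hp and Orm2 had their highest coefficients with the adipocyte markers, while Orm1 was about as close to Alb. Over 39 arrays Hp and the mean of 8 adipocyte markers had r = 0.90, Orm2 0.85 and Orm1 0.72, while Lcn2 had -0.55 and Saa3 0.12. With Alb, Orm1 had r = 0.79 and Orm2 0.74, and 0.77 and 0.72 without HFC Day 14 and LFC Week 18. With Ttr, well above background on 3 of 39 arrays, Orm1 had 0.34 and Orm2 0.13, and 0.13 and -0.13 without the same arrays. Alb and Ttr had 0.36 with each other, and -0.06 without them. With the liver marker mean Orm1 had 0.62 and Orm2 0.50. Hp and Orm2 had their lowest levels on arrays of Week 15, 0.62 on HFC for Hp and -7.50 on LFC for Orm2, where the adipocyte mean was 0.73 and 1.47. The adipocyte mean over all arrays had a median of 3.26. Serpina3n followed the macrophage markers, with r = 0.76 over 39 arrays and 0.59 over the 33. These values describe arrays that share diets, time points and depth.

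**Figure D5:**
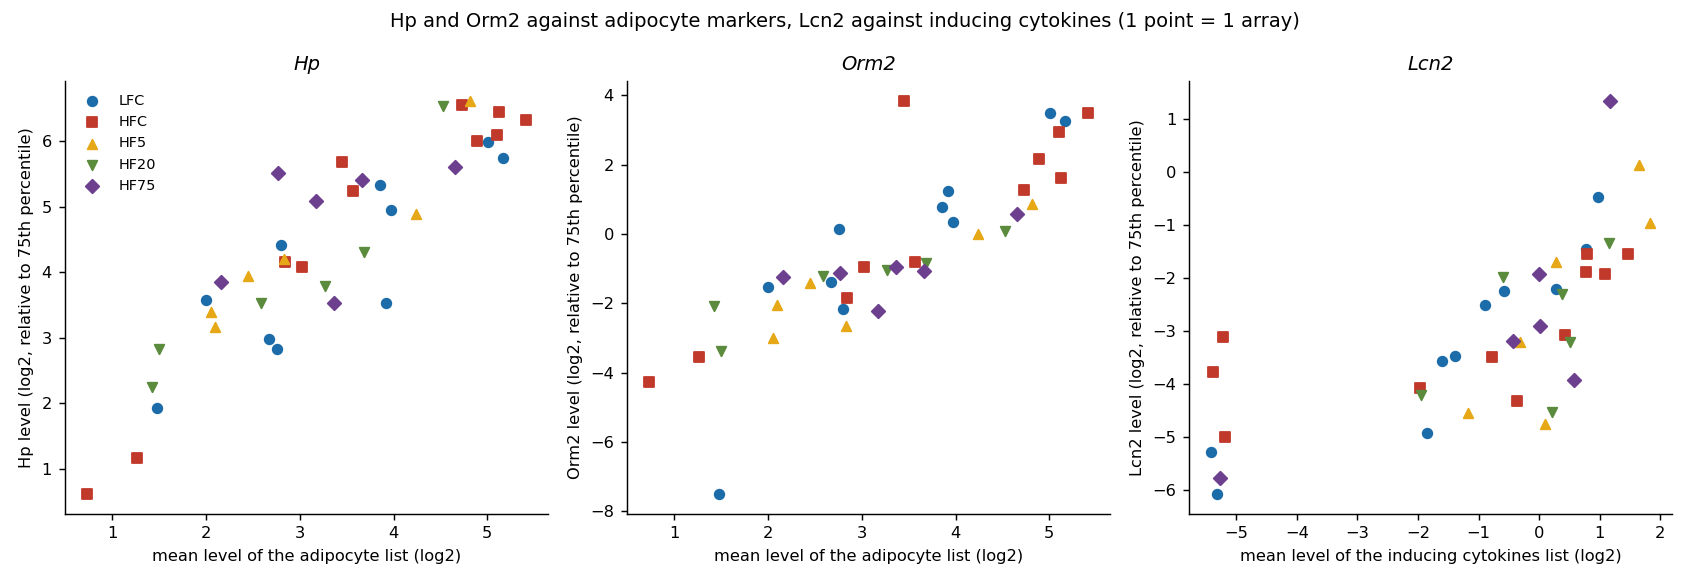
Level of Hp and Orm2 against the mean level of the adipocyte markers, and of Lcn2 against the mean level of the inducing cytokines (all log2), with 1 point per array and the diets in colour. The 6 arrays at -5.19 or lower form a group of their own at the left of the Lcn2 panel.

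The genes most like each member were named by the highest Pearson r over 39 arrays among the 19169 other gene names above background on at least 20 arrays. For Hp they were Adipoq, which encodes adiponectin (0.90), Adrb3, the beta-adrenergic receptor of fat cells (0.85), and Tmem45b (0.84). For Orm2 they were Apoc1, an apolipoprotein (0.90), Rbp4, the retinol carrier (0.87), and Mmd (0.87), and for Orm1 Slc13a4 (0.89), Dct (0.86) and Vnn3 (0.86). For Serpina3n they were C4b (0.86) and C2 (0.85), both complement components, and Rab32 (0.85). For Lcn2 they were Slfn3 (0.77), Il13ra1 (0.77) and Irg1 (0.75). For Saa3 they included Bst1 (0.75) and the macrophage scavenger receptor Msr1 (0.65). For Saa2 they were the liver products Ambp (0.79), Hpx (0.78) and Apoa2 (0.78), which fell to 0.49, 0.31 and 0.44 without HFC Day 14 and LFC Week 18. For Saa1 they were Ambp (0.70), Hpx (0.69) and Chi3l1 (0.66), which were 0.49, 0.39 and 0.65 without those arrays.

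The other genes of the acute-phase pathway gave no call in any of the 11 comparisons. Of 21 other acute-phase proteins 17 were tested in HFC against LFC, 13 of them above 0, with a median of 0.17, and Serpina3m, a serpin of the same gene cluster as Serpina3n, had the smallest p (1.54, SE 0.61, limma adjusted p = 0.803). Of the 6 inducing cytokines 5 were above 0, with a median of 0.52, and Il1a had 1.23 (SE 0.60, adjusted p = 0.803 by limma), but 0.05 with normexp, 0.50 with array quality weights and 0.60 without HFC Day 14 and LFC Week 18. Of the 6 cytokine receptors 3 were above 0, and Lifr, a receptor subunit for Lif and Osm, had -1.65 (SE 0.96). The 10 signal and transcription factors had a median of 0.00, with the glucocorticoid receptor Nr3c1 at 0.28 (SE 0.18). Of the receptors and partners of the products 9 were tested, 7 above 0, and Tlr2, a receptor reported for serum amyloid A, had 0.63 (SE 0.41), and 0.17 with array quality weights, 0.20 without those 2 arrays and 0.41 with scan day as the block. The median over all genes tested was -0.04. In the late arrays alone the inducing cytokines had a median of 1.38 in HFC against LFC, with 5 of 6 above 0, where 44.8% of all genes were. Their mean was lower on HFC than on LFC at Week 3 (-1.97 and -0.89), Week 6 (0.42 and 0.97) and Week 9 (-0.37 and 0.28), and higher at the later time points, with LFC at -5.42 at Week 12 and -1.85 at Week 18. On HF75 against HFC they had a median of -1.01 with 1 of 6 above 0, and of the 10 signal and transcription factors 0 were above 0, with a median of -0.24, where 50.2% of all genes were above 0. HF75 Week 3, with the muscle marker mean of 7.60, had the lowest mean of both lists among the arrays compared. The cytokine mean was -5.26 there and -1.97 on HFC, and that of the signal and transcription factors 1.74 and 3.50. At the later time points the cytokine mean was -0.43 to 1.17 on HF75 and -0.37 to 1.47 on HFC. The part of that array in these medians was not tested. Per week, 6 of 6 inducing cytokines and 15 of 17 other acute-phase proteins were above 0, against 55.6% of all genes.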

How the data were processed

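The values were the authors' Agilent Feature Extraction files of 39 one-colour arrays of subcutaneous adipose RNA. Feature Extraction is version 9.1 per the labels and 10.5.1.1 per the file headers. The deposited intensity (gProcessedSignal) was background-corrected by that software, and its deposited flags for spots above background, saturated or outlying were read as 0 or 1. The deposited series table of log2 ratios was used only to check which array each of its columns followed.

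Control spots and those marked as outliers were dropped, spots of a probe were averaged, and the level was the log2 intensity minus the log2 of the 75th percentile of the array. A gene was read from its probe with the highest mean level over the 39 arrays. Genes entered a fit when well above background on at least 10 arrays of the 20 LFC and HFC arrays, or 6 of the 30 arrays of Week 3 to Week 18. Fits used limma 3.58.1 in R 4.3.3 (lmFit, eBayes, two-sided, Benjamini-Hochberg over all genes, called at adjusted p under 0.05) with time point as a block, or diet where time was tested. Tables and figures used Python 3.11.15, pandas 2.3.3, Biopython 1.88 and matplotlib 3.10.9. The fits were tested on simulated data in which the values of each gene were shuffled over arrays. Such data do not keep time points or scan days together, so they cannot show how the fits behave on arrays grouped as these are. The number of arrays limits the precision.

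The members and gene lists were chosen with earlier results of these data known. Named were all 8 members, Alb and Ttr, up to 3 genes per list with the smallest p in HFC against LFC where none was called, and the 3 genes most like each member, of which 1 is not reported here. Alternatives covered background correction, normalization, filters, probes, outlier spots, the spread model, array weights, slide, blocks and time points left out. 6 were added after seeing the data.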

Additional observations from a re-analysis of the deposited data

Results flagged for a closer look

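Of 32 sets of a member's levels within LFC, HF5, HF20 or HF75, 3 had a lowest or highest array that lay far from the others, where chance gives about 1 in 20. The 11 HFC arrays were too many for this test, where Saa2 was at 5.67 on Day 14 and next at -1.74 on Day 10. Saa2 on LFC Week 18 was at 0.74, and the next LFC level was -3.55. Alb was at 0.86 on that array. Orm2 on LFC Week 15 was at -7.5, not well above background, and the next LFC level was -2.16. The adipocyte marker mean was 1.47 on that array, the lowest of LFC. Serpina3n on HF75 Week 3 was at -3.88, also not well above background, and the next HF75 level was -0.62. The macrophage marker mean was -1.99 and the skeletal muscle marker mean 7.60 on that array. The part of these marker levels was not tested.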

How the results depend on the processing

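No member was called in 10 of the 11 comparisons under any alternative run. In the change per week, 1 member (Saa2) was called with array quality weights, where 421 genes were called in all, and 0 to 1 when each time point was left out in turn, with 1 without Week 3, where 2894 were. Of 239 alternative counts, 237 were unchanged. The difference of Saa3 between HFC and LFC stayed above 0 throughout, from 1.70 with normexp background correction, and from 2.04 to 2.73 with time points left out.

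Of 716 alternative values of single genes, 26 turned their sign, all of them values of members and none called. The 716 cover the members and, in HFC against LFC, also Serpina3m, Il1a, Lifr, Nr3c1 and Tlr2. For the KAL-1 diets they cover Serpina3n alone. The cause of the turns was not tested. For Lcn2 in HFC against LFC the value was -0.23 with normexp, -0.56 with array quality weights, -0.36 with scan day as the block, -0.43 without HFC Day 14 and LFC Week 18, and -0.37 without the 6 arrays lowest in cytokines. With Day 14 and Week 0 averaged, the value for Orm1 was -0.13. Late against early, over both diets, was 0.10 for Saa3 and 0.16 for Hp without those 6 arrays. The change per week of Orm1 was -0.0638 with array quality weights, -0.0182 without LFC Week 18 and -0.00187 without HF20 Week 15. With time points left out in turn, HFC against LFC ran from -0.20 to 0.47 for Lcn2 and from -0.35 to 0.64 for Orm1. Late against early ran from -1.20 to 0.0856 for Saa1, -1.60 to 0.48 for Saa2 and -0.57 to 0.37 for Hp. The change per week ran from -0.0899 to 0.0241 for Hp, -0.0340 to 0.0821 for Orm1, -0.126 to 0.0256 for Orm2 and -0.00636 to 0.113 for Serpina3n.

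Over all genes, the calls in late against early went from 44 to between 1 and 267, those in the change per week from 20 to between 0 and 2894 (without Week 3), and those in HF20 against HFC from 0 to 8113 with normexp. Exchanging the Week 12 arrays of HF5 and HF20 changed no call of a member. The slide could not be estimated as a random block for LFC and HFC, since 1 slide held 2 of the 20 arrays. The fits of diets were paired by time point, and without that block no member was called. The replicate numbers only name arrays in accession order and paired nothing.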
